A study of Caenorhabditis elegans with 4 samples.

Results

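Chromosome V carried 451 of the 3192 DPL-1 peak regions in the combined peak list of a chromatin immunoprecipitation sequencing (ChIP-seq) study of fed L1 larvae of *Caenorhabditis elegans*. These regions were all the rows of that list on chromosome V, and none was entered more than once. Anti-GFP chromatin was collected from hermaphrodites of the strain YL448, grown at 20 °C and fixed with 2% formaldehyde. Worms of this strain carry the *unc-119* allele ed3 on chromosome III and the transgene vrIs83, in which the promoter of *ges-1* drives DPL-1 joined to GFP and a 3xFlag tag, followed by the *dpl-1* 3′UTR, with an *unc-119*(+) rescue marker. The labels give the strain as never outcrossed. There were 2 ChIP libraries and 2 input libraries, all of this strain. Peak lists of ChIP replicate 1, ChIP replicate 2 and both combined were used. The input libraries were not analysed here, and no library of an untagged strain was among the samples. Read depth is unknown, since the lists hold no counts. Separate cultures for the 2 replicates are not stated in the labels, so the spread between them may be technical.

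DPL-1 is the worm DP protein. It pairs with E2F factors to bind DNA and takes part in the conserved DREAM complex, which holds cell cycle genes and other genes in a repressed state. *ges-1* encodes an esterase of the gut, and its promoter is used to drive expression in the intestine, whose cells replicate their DNA without dividing during larval growth. The protein mapped is thus the tagged copy under a gut promoter, not native DPL-1. Worm autosomes have a centre, which is rich in conserved genes and recombines rarely, and 2 arms, which hold more repeats and fast-evolving gene families and recombine often. Chromosome V is known for its many genes for chemosensory receptors. *ges-1* itself lies on chromosome V in the RefSeq gene table, so reads from the promoter in the transgene would map to this chromosome. Whether a peak described here lies at *ges-1* was not examined, and no gene is assigned to any peak, because no annotation of WormBase build WS220, the build of the files, was used here.

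All positions below are on chromosome V of WS220. Peaks of any list spanned positions 3365 to 20918164, or 20.9 Mb. The centre is taken here as the stretch from 25% to 75% of this span, positions 5232065 to 15689464 (10.5 Mb). The left arm is the outer stretch before it, positions 3365 to 5232064, and the right arm the one after it, positions 15689465 to 20918164 (5.23 Mb each). These bounds are fractions of the span and not boundaries of recombination rate. A peak belongs to the zone that holds its midpoint.

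The combined peaks were short and mostly of one width. Of the 451 peaks, 324 (71.8%) were exactly 324 bp wide, and the others ran from 82 to 386 bp. The widest was number 182 at positions 5049377 to 5049762, in the left arm. The first peak of the chromosome, number 288, lay at positions 8156 to 8411, and the last, number 1461, at 20845485 to 20845808. The authors give each peak of a list a number and a score, and the score has a ceiling that 361 of the 451 peaks (80.0%) reached, against 79.4% of all combined peaks. Number 1 is taken here as the strongest, because numbers broadly rise as the score falls. On chromosome V all combined peaks at the ceiling were numbered 2533 or lower and all those below it 2545 or higher. Across the 90 below it Spearman's rho between number and score was -0.96. These scores fell in steps, and within a step the order could run the other way. The score rose from 3.2295 at number 2545 to 3.2590 at number 2724. Over all chromosome V peaks rho was -0.70 in the combined list, where most scores are tied at the ceiling, -0.9997 in replicate 1 and -0.9996 in replicate 2. Among peaks at the ceiling the score cannot check the order of the numbers. Strength is therefore given below by number. Chromosome V numbers ran from 6 to 3183 with a median of 1533. The replicate lists placed 4423 peaks (replicate 1) and 5698 peaks (replicate 2) on the chromosome, which covered 7.11% and 7.65% of the span, against 0.625% for the combined list.

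DPL-1 peaks were about 2 times as dense in the centre as in the arms. In numbers, the centre held 307 peaks, or 29.4 per Mb (95% exact Poisson interval 26.2 to 32.8). The left arm held 79 peaks, or 15.1 per Mb (12.0 to 18.8), and the right arm 65 peaks, or 12.4 per Mb (9.59 to 15.8). The density in the centre was 2.13 times that of both arms together (95% exact interval 1.74 to 2.62). It was 1.94 times that of the left arm (1.51 to 2.52) and 2.36 times that of the right arm (1.80 to 3.14). Both arms thus lay below the centre beyond counting error. The arms were not separated from each other, since the left arm had 1.22 times the density of the right with an interval of 0.864 to 1.71. These intervals count neighbouring peaks as independent of each other, which is not so. With peaks less than 10 kb apart merged into 1 region, the centre still had 1.82 times the density of the arms (1.43 to 2.32).

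The same order of zones held in each replicate list, with a smaller difference. Replicate 1 had 239 peaks per Mb (229 to 248) in the centre, against 200.2 (188 to 213) in the left arm and 168 (158 to 180) in the right arm. Replicate 2 had 315 peaks per Mb (304 to 326) in the centre, against 240.0 (227 to 254) in the left arm and 220.1 (208 to 233) in the right arm. The density of the centre over both arms was 1.29 (1.22 to 1.37) in replicate 1 and 1.37 (1.30 to 1.44) in replicate 2. In these longer lists the left arm was denser than the right, by 1.19 times (1.09 to 1.30) in replicate 1 and by 1.09 times (1.01 to 1.18) in replicate 2.

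**Figure D1:**
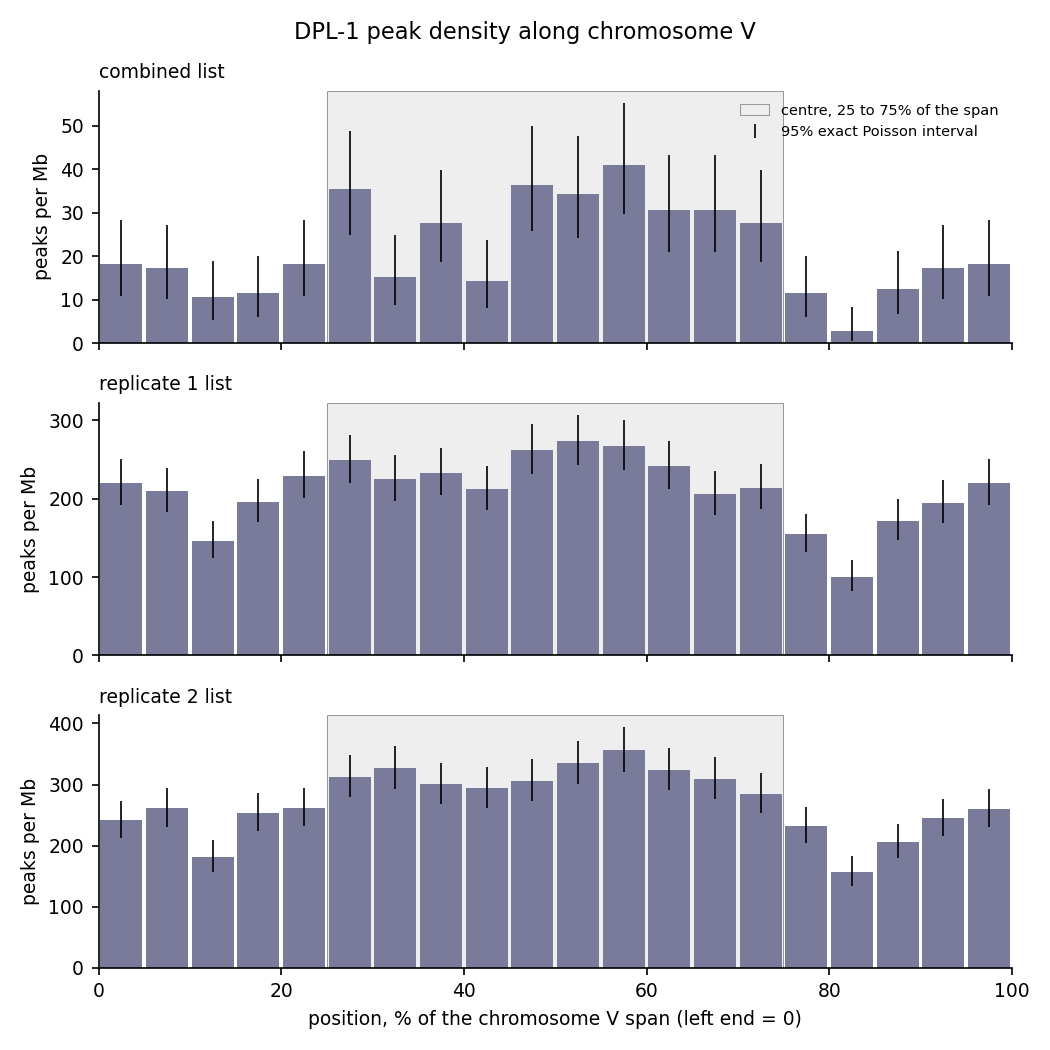
Peaks per Mb in 20 equal bins along the chromosome V span (x axis, percent of the span from the left end) for the combined, replicate 1 and replicate 2 lists, with 95% exact Poisson intervals as lines and the centre shaded. The combined list peaks at 41.1 per Mb between 55 and 60% of the span and dips to 2.87 per Mb between 80 and 85%, and both replicate lists dip in that bin too.

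The density was not even within a zone. In 10 equal bins from left to right, the combined list held 37, 23, 56, 45, 53, 79, 64, 41, 16 and 37 peaks. The bin from 50 to 60% of the span was the fullest, with 37.8 peaks per Mb (29.9 to 47.1), and that from 80 to 90% the emptiest, with 7.65 per Mb (4.37 to 12.4). In both arms the outermost bin held more peaks than the bin next to it. On the right these were 17.7 per Mb (12.5 to 24.4) at the end of the span, against 7.65 per Mb inward. On the left they were 17.7 per Mb (12.5 to 24.4), against 10.997 per Mb (6.97 to 16.5), intervals that overlap. Both replicate lists showed the right-hand step. Replicate 1 had 208 peaks per Mb (188 to 228) in the end bin and 136 (121 to 153) in the next. Replicate 2 had 252 (231 to 275) in the end bin and 182 (164 to 201) in the next. On the left, replicate 1 had 215 (195 to 235) in the end bin and 171 (154 to 190) in the next. Replicate 2 had 251 (230 to 274) and 218 (198 to 238) there, intervals that overlap.

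By windows of 500 kb, counted from the left end of the span, the fullest window of the combined list had 26 peaks, at positions 11503365 to 12003364. Of these, 8 were among the 1000 strongest peaks of the list, and the best was number 19. The next fullest, with 21 peaks each, were positions 10503365 to 11003364, which held number 6, and 13503365 to 14003364. The median window had 9.5 peaks. Only 1 window had none, at positions 17003365 to 17503364 in the right arm. It was also the emptiest window of both replicate lists, with 42 peaks in replicate 1 and 59 in replicate 2, where the median windows had 106 and 136.

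The centre had more peaks than the arms, and a difference in their strength was not detectable within the combined list. Of the 307 central peaks, 160 (52.1%, exact binomial interval 46.4 to 57.8) were in the stronger 50% of the list by number, against 72 of the 144 peaks in the arms (50%, interval 41.6 to 58.4). Over all chromosomes this share was 50%. The left arm had 43 of 79 (54.4%, 42.8 to 65.7) and the right arm 29 of 65 (44.6%, 32.3 to 57.5), so all intervals overlap. With the centre taken from 33 to 67% of the span the order turned round, with 49.5% in the centre and 53.2% in the arms. Among the 1000 strongest peaks, which are 31.3% of the whole list, were 108 central peaks (35.2%, 29.8 to 40.8) and 50 of the arms (34.7%, 27.0 to 43.1). Median numbers were 1512 in the centre, 1479 in the left arm and 1703 in the right arm.

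The excess in the centre was present in every class of the combined list by number. The density of the centre over the arms was 2.16 (1.53 to 3.08) among the 1000 strongest peaks. It was 2.37 (1.63 to 3.497) for the next 1000 peaks and 1.92 (1.37 to 2.74) for the weakest, numbers 2001 to 3195. In the replicate lists it shrank among weak peaks. Replicate 1 had ratios of 2.21 (1.56 to 3.17) for its 1000 strongest peaks and 2.08 (1.62 to 2.69) for numbers 1001 to 3195. The ratio was 1.55 (1.38 to 1.75) for numbers 3196 to 10000. Its peaks numbered 10001 to 20000 had a ratio of 1.16 (1.06 to 1.27), and those above 20000 one of 1.02 (0.890 to 1.17), where an excess was not detectable. Replicate 2 ran the same way, with 2.08 (1.47 to 2.98), 2.19 (1.71 to 2.81), 1.59 (1.42 to 1.79), 1.33 (1.21 to 1.45) and 1.17 (1.07 to 1.28) for the same 5 classes. The weak peaks of a replicate list were thus spread more evenly along the chromosome than the strong ones. The zones of the whole replicate lists differed in strength accordingly. In replicate 1, 49.9% (47.9 to 51.8) of central peaks and 40.8% (38.6 to 43.1) of peaks in the arms were in the stronger 50% of the list. In replicate 2 the shares were 50.2% (48.5 to 51.9) in the centre and 43.3% (41.4 to 45.4) in the arms.

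**Figure D2:**
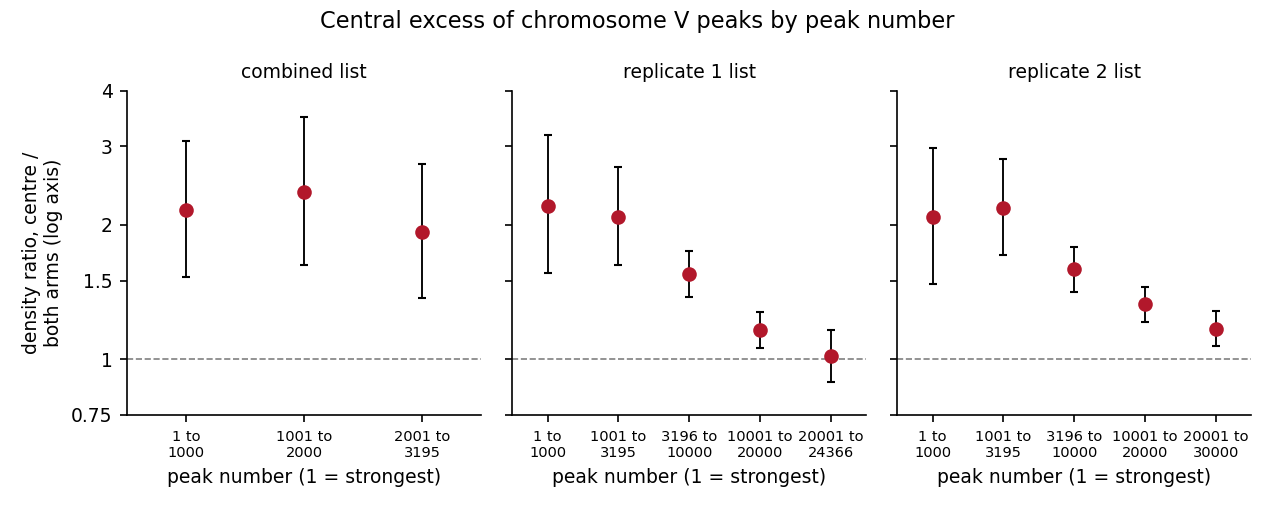
Ratio of peak density in the centre of chromosome V to that in both arms (y axis, log scale) by class of peak number (x axis, 1 the strongest) in the 3 lists, with 95% exact intervals and a dashed line at equal density. The ratio is near 2 in every class of the combined list and falls with number in both replicate lists, to 1.02 in replicate 1 and 1.17 in replicate 2.

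The share of peaks that lay on chromosome V also differed between classes of strength in the replicate lists. Chromosome V makes up 20.9% of the span of all chromosomes. Among peaks numbered above 20000, 20.1% (18.9 to 21.3) lay on V in replicate 1 and 20.3% (19.5 to 21.1) in replicate 2. Among the 1000 strongest the share was 15.4% in both replicates (13.2 to 17.8 in each). It was lowest in the next class, numbers 1001 to 3195, with 13.4% (12.0 to 14.8) in replicate 1 and 14.1% (12.7 to 15.6) in replicate 2, although these intervals overlap those of the strongest class. For numbers 3196 to 10000 it was 17.2% (16.3 to 18.1) in replicate 1 and 17.9% (17.0 to 18.9) in replicate 2, so the share did not simply fall with strength. In the combined list it was 15.8% (13.6 to 18.2) for the 1000 strongest peaks and 13.0% (11.1 to 15.0) for those numbered above 2000, intervals that overlap.

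The 5 strongest peaks of the centre in the combined list ranked between 5 and 62 in both replicate lists, in an order that differed between the lists. The strongest of the whole chromosome, number 6 of the combined list, lay at positions 10897203 to 10897546. It ranked 5 in replicate 1 and 10 in replicate 2. The next, number 19 at 11521465 to 11521757, ranked 27 and 20. Number 35 was found towards the left end of the centre, at 5939504 to 5939843, with ranks of 31 in replicate 1 and 40 in replicate 2. The midpoints of these 3 peaks differed from those of their replicate peaks by at most 20 bp. Number 39 had the widest disagreement of the 5, with rank 28 in replicate 1 against rank 62 in replicate 2, and lay at 12343585 to 12343898. In replicate 2 it came after the partner of another central peak, combined number 59 at 12291621 to 12291942, which ranked 50. The fifth, number 49 at 15189581 to 15189888, ranked 51 and 47.

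The right arm had fewer peaks but 2 of comparable rank. Its strongest was number 9, at positions 16965666 to 16965988, with rank 17 in replicate 1 and rank 9 in replicate 2. Number 30 lay just outside the centre, at 15766201 to 15766517, and ranked 30 and 32. The other 3 of its 5 strongest ranked from 79 to 120 in replicate 1 and from 59 to 85 in replicate 2. These were number 75 at 18967672 to 18967954, number 81, whose interval ran from 17921442 to 17921742, and number 102, from 18086814 to 18087083.

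The left arm started lower in the order. Its strongest was number 70, at 1868647 to 1868959, with rank 72 in replicate 1 and rank 70 in replicate 2. Next to the centre lay number 103, at 5204221 to 5204499, which ranked 69 and 148. Number 126 (773298 to 773552) ranked 131 and 118, and number 148 (2638572 to 2638856) ranked 135 and 170. Number 182, the widest peak given above, ranked 242 in replicate 1 and 126 in replicate 2. Stronger than the best left arm peak were 6 peaks of the centre and 2 of the right arm.

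Nearly all combined peaks had partners in both replicate lists, in each zone. A partner is the replicate peak that shares at least 1 bp and has the nearest midpoint. In the centre 304 of 307 peaks (99.0%, exact interval 97.2 to 99.8) were matched in both lists, in the left arm 78 of 79 (98.7%, 93.1 to 100.0) and in the right arm 64 of 65 (98.5%, 91.7 to 100.0). All chromosomes together gave 98.8%. Taken singly, 450 of the 451 peaks were matched in replicate 1, against 99.6% over all chromosomes, and 447 in replicate 2, against 99.2%. The combined list was made from the same libraries, so this is a description. Midpoints lay a median of 8 bp from the partner in both replicates for central peaks, 7.5 bp in replicate 1 and 12 bp in replicate 2 for the left arm, and 5.25 bp and 12 bp for the right arm. The median partner of a central peak was number 1452 in replicate 2, that of a left arm peak number 1520 and that of a right arm peak number 1671.

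Numbers of the partners followed each other between replicates. Across the 446 peaks matched in both lists Spearman's rho between the replicate 1 and replicate 2 numbers was 0.86. By zone it was 0.88 in the centre (304 peaks), 0.88 in the left arm (78 peaks) and 0.76 in the right arm (64 peaks). These are descriptions across peaks that share libraries. The files name the irreproducible discovery rate, which rates peaks by how well their ranks agree between replicates. If the combined list was selected by it, this agreement is partly set by that selection. The 2 numbers were within 2 times of each other for 272 central peaks (89.5%), 69 left arm peaks (88.5%) and 53 right arm peaks (82.8%). Partners weaker than number 3195, the length of the combined list, were found for 46 peaks in replicate 1 and 59 in replicate 2, and for 12 peaks in both.

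**Figure D3:**
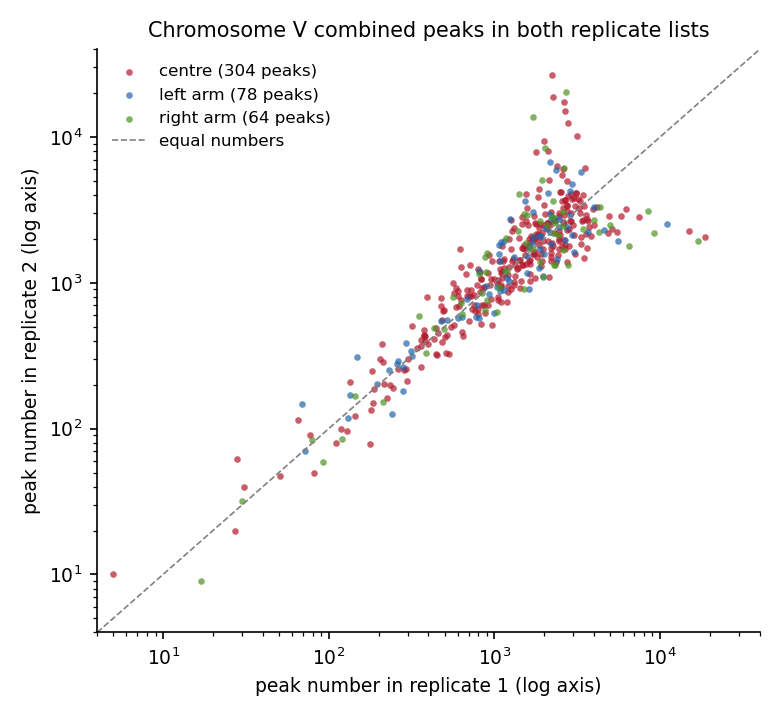
Peak number in replicate 1 (x axis, log scale) against replicate 2 (y axis, log scale) for the 446 combined chromosome V peaks with partners in both lists, coloured by zone, with a dashed line at equal numbers. Points follow the line up to about the length of the combined list and fan out beyond it in all 3 zones.

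The 5 peaks without a partner in 1 list were of middling or low strength. In the centre these were number 1861 (positions 11239207 to 11239530), number 2320 (10661652 to 10661975) and number 3081 (10134154 to 10134477), all absent from replicate 2. The left arm had number 3042 at 979812 to 980135, also absent from replicate 2. Only number 2650 in the right arm, at 19643025 to 19643348, was absent from replicate 1. The nearest peaks of the list in question were partners of other combined peaks, or weak peaks numbered above 3195. Directly beside number 2320 ended replicate 2 peak 638, the partner of combined number 530. The replicate 1 peak nearest to number 2650, at 535 bp, was number 1571, the partner of combined number 2036. Replicate 2 peaks 7894 and 23733, which are partners of no combined peak, lay 221 bp from number 1861 and 471 bp from number 3042. The nearest replicate 2 peak to number 3081 was 4954 bp away. The same places gave the strongest unmatched peaks of the replicate lists on this chromosome, which were number 1483 of replicate 1, from 11239218 to 11239561, and number 1375 of replicate 2, from 19643045 to 19643328.

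Among all replicate peaks, recurrence was more frequent in the centre than in the arms. Of the replicate 1 peaks, 42.3% (exact interval 40.3 to 44.3) overlapped a replicate 2 peak in the centre, against 34.4% (31.5 to 37.3) in the left arm and 32.1% (29.0 to 35.3) in the right arm. The value over all chromosomes was 41.3%. Of the replicate 2 peaks, 31.7% (30.1 to 33.3) overlapped replicate 1 in the centre, 28.0% (25.5 to 30.5) in the left arm and 24.2% (21.7 to 26.7) in the right arm, with 33% over all chromosomes. The intervals of the centre and the left arm overlap there. The other list also covered more of the centre. Replicate 2 peaks covered 8.82% of the centre, 6.76% of the left arm and 6.20% of the right arm, and replicate 1 peaks covered 8.00%, 6.76% and 5.71%. The part of this coverage in the recurrence was not tested.

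Recurrence differed far more between classes of strength than between zones. All 154 chromosome V peaks among the 1000 strongest of replicate 1 were matched, and so were all 154 of replicate 2. For numbers 1001 to 3195 of replicate 1, 95.5% (91.5 to 97.9) were matched in the centre, 96.2% (87.0 to 99.5) in the left arm and 88.1% (74.4 to 96.0) in the right arm. For the same numbers of replicate 2 the centre was the lowest, with 86.8% (81.5 to 91.0) against 92.5% (81.8 to 97.9) in the left arm and 93.2% (81.3 to 98.6) in the right arm. For numbers 3196 to 10000 the shares dropped to 43.6%, 39.6% and 35.2% in replicate 1, and to 37.5%, 31.2% and 26.8% in replicate 2, for centre, left arm and right arm. Above number 20000 the zones of replicate 2 did not differ beyond counting error, with 20.7% (18.4 to 23.3) in the centre and 21.7% (19.1 to 24.5) in the arms. In replicate 1 the shares there were 28.7% (24.6 to 33.2) and 21.0% (17.2 to 25.1).

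**Figure D4:**
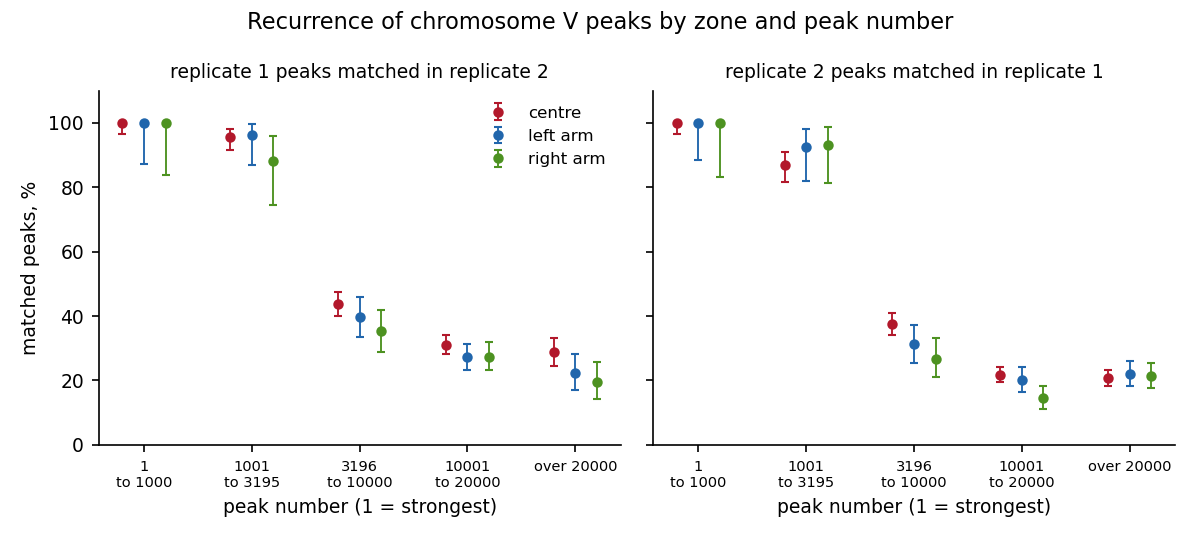
Share of chromosome V replicate peaks with at least 1 bp of overlap in the other replicate (y axis, percent) by class of peak number (x axis, 1 the strongest) and zone, with 95% exact binomial intervals. Matches run from 100% among the 1000 strongest peaks to between 14.4 and 31.1% above number 10000, and the share differs more between strength classes than between zones.

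Spacing followed density. Midpoints of neighbouring combined peaks lay a median of 22.1 kb apart in the centre, with an interquartile range of 5.75 to 46.5 kb. The median was 38.0 kb (13.0 to 85.9 kb) in the left arm and 31.0 kb (8.85 to 105 kb) in the right arm. The order of the arms turned round among the stronger 50% of the list, with medians of 73.3 kb in the left arm and 92.2 kb in the right arm. Long empty stretches set the arms apart. Gaps of over 100 kb between peak edges numbered 19 in the centre, 16 in the left arm and 17 in the right arm. They took up 27.2% of the centre, but 61.5% of the left arm and 72.9% of the right arm. Of windows of 100 kb, 6 of 104 had no combined peak in the centre, against 19 of 52 in the left arm and 21 of 52 in the right arm. No such window held more than 8 peaks in the centre or 6 in either arm.

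**Figure D5:**
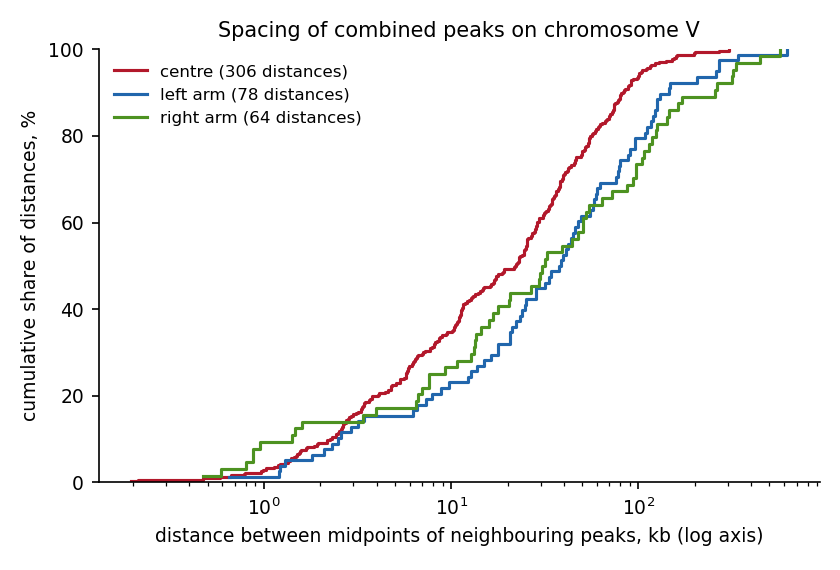
Cumulative share (y axis, percent) of distances between midpoints of neighbouring combined peaks (x axis, kb, log scale) in the centre, left arm and right arm. The central curve lies to the left of both arms from a few kb upwards, with medians of 22.1, 38.0 and 31.0 kb, and the longest distances are in the arms.

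The 5 longest gaps between combined peaks all lay in the arms. The longest, 621 kb at positions 2694754 to 3315309 of the left arm, held 111 peaks of replicate 1 and 130 of replicate 2. The best of these ranked 3385 and 3614 in their lists. The second, 573 kb at 16965989 to 17538517 of the right arm, began directly beside peak number 9, the strongest of that arm. It was thin in the replicate lists too, with 78.6 peaks per Mb in replicate 1 and 118.8 in replicate 2. Of its 45 replicate 1 peaks 7 were matched. In the whole right arm 32.1% of replicate 1 peaks were matched. The share there was 35.2% for numbers 3196 to 10000 and 19.6% for numbers above 20000. The third, 447 kb at 18087084 to 18533635, also began beside one of the strongest peaks of the right arm, number 102. The fourth, 340 kb at 2260153 to 2600610 of the left arm, held 21 replicate 1 and 34 replicate 2 peaks. The fifth was 332 kb at 19673622 to 20005745 of the right arm. No replicate peak stronger than number 3007 lay in any of these gaps. The gaps were chosen for holding no combined peak, so this lack of strong replicate peaks is partly set by that choice. Replicate 1 peaks matched in replicate 2 were 34 of 111 in the first gap and 11 of 60 in the third. They were 8 of 21 in the fourth and 10 of 47 in the fifth.

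The fourth gap contained a stretch without any peak in any list. Replicate 1 had no peak from position 2343606 to 2564747 (221 kb) and replicate 2 had none from 2346344 to 2569330 (223 kb). These were the longest gaps of both replicate lists on the chromosome. The second longest also coincided, at 8804547 to 8903818 (99.3 kb) in replicate 1 and 8812393 to 8901359 (89.0 kb) in replicate 2, within the centre. These coinciding gaps were singled out after their values had been seen.

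At the other extreme, 4 of the 5 closest pairs lay in the centre, which held 68.1% of the combined peaks. Distances of at most 2 kb between neighbouring midpoints made up 9.15% of those in the centre. The share was 6.41% in the left arm and 14.1% in the right arm. The closest edges were those of numbers 2692 and 2497, at 9980614 to 9980937 and 9980826 to 9981149, which share 112 bp. They had separate partners in replicate 1, numbers 2487 and 2511, and the same partner in replicate 2, number 4170. Numbers 530 and 2320, at 10661527 to 10661709 and 10661652 to 10661975, share 58 bp, and replicate 2 held a partner for number 530 only. The remaining pairs did not overlap. Numbers 2164 and 3125 lay 147 bp apart near position 12300303, numbers 2417 and 1701 in the right arm lay 151 bp apart near 17870592, and numbers 665 and 2758 lay 257 bp apart near 6043278. All 3 of these pairs had separate partners in both replicates.

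Peaks with a neighbour within 2 kb made up 79 of the 451, with 52 of 307 in the centre (16.9%), 10 of 79 in the left arm (12.7%) and 17 of 65 in the right arm (26.2%). The share over all chromosomes is not given here. The median number of these 79 peaks was 1862, against 1440.5 for the 372 peaks without such a neighbour. By zone it was 1915 against 1418 in the centre and 2036 against 1432 in the right arm. The left arm went the other way, with 1151.5 against 1499.

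The share of peaks in the centre was larger on chromosome V than on the other autosomes. Of the combined peaks 68.1% (63.5 to 72.4) lay in the centre of V, against 57.8% (55.8 to 59.8) in the centres of chromosomes I, II, III and IV, each defined by its own span. The odds of a central position on V were 1.56 times those on the 4 others (95% exact interval 1.25 to 1.94, two-sided Fisher's exact test, Benjamini-Hochberg adjusted p = 0.000135 over 5 comparisons). Chromosome by chromosome, the odds ratio was 1.67 against I (Fisher's exact test, adjusted p = 0.000135), 1.51 against II (adjusted p = 0.0024), 1.39 against III (adjusted p = 0.0097) and 1.68 against IV (adjusted p = 0.00016). The test treats peaks of 1 list as independent, so its p-values cover counting error and not the spread between libraries. The chromosome and zones were chosen with earlier results of these data known. With peaks within 10 kb merged into 1 region the odds ratio was 1.52 (1.17 to 1.98, Fisher's exact test, adjusted p = 0.0038), and with the centre from 33 to 67% of the span it was 1.35 (1.10 to 1.66, adjusted p = 0.0105). In the whole replicate lists the odds ratio against the 4 others was 1.16 (1.08 to 1.24, Fisher's exact test, adjusted p = 3.9e-05) in replicate 1 and 1.14 (1.07 to 1.21, adjusted p = 4.5e-05) in replicate 2. There V did not pass against chromosome I, with odds ratios of 1.06 (Fisher's exact test, adjusted p = 0.17) in replicate 1 and 1.05 (adjusted p = 0.20) in replicate 2, nor against chromosome II in replicate 1 (1.08, adjusted p = 0.12).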

How the data were processed

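Peak intervals were deposited by the authors for each ChIP replicate and for both combined, on the WormBase genome WS220 per the file headers. SPP, a peak caller, and IDR, the irreproducible discovery rate, are named in the files' method column. Not given in the sources used here are the aligner, read filters, thresholds, use of the inputs and selection of the combined list. Each peak has a score, deposited by the authors on an unexplained scale with a ceiling, and a number in its name, each used once per list, which was used as its rank within that list.

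Identical intervals entered again (3, 2 and 3 in the combined, replicate 1 and replicate 2 lists, none on V) counted as 1 region. Overlap was at least 1 bp. Densities have exact Poisson intervals, shares Clopper-Pearson intervals and density ratios exact conditional intervals, all at 95% and covering counting error only. Functions were tested on simulated data. Python 3.11.15, numpy 2.4.6, pandas 2.3.3, scipy 1.17.1 and matplotlib 3.10.9 were used.

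The regions named are the 5 strongest peaks of each zone, the 5 longest gaps, the 5 closest pairs, the widest, first and last peaks, peaks missing from a replicate list, the fullest and emptiest 500 kb window and the strongest unmatched replicate peaks. The chromosome, zones and rules were chosen with earlier results of these data known.

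Alternatives were 50% reciprocal overlap, stronger list portions, other zone bounds or span, merged peaks, intervals as deposited, and the strongest 3195 peaks or the whole list of 1 replicate.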

Additional observations from a re-analysis of the deposited data

How the results depend on the processing

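No paired analysis was possible because only ChIP libraries were analysed, and no comparison was made with the inputs that carry the same replicate numbers. Of 77 alternative values, 56 stayed on the same side of the threshold or within the interval or spread of the value reported, each zone taken by itself. No density ratio or odds ratio changed direction, but the order of zones did for the share of strong peaks and for the spacing of the arms, as given below. The density of the centre over the arms ranged from 1.29 in the whole replicate 1 list to 2.22 in the stronger 50% of the combined list, always with an interval above 1, and was 2.13 to 2.15 with 1 replicate left out. The odds ratio of a central position, V over the other autosomes, was 1.504 to 1.56 with 1 replicate left out. It ran from 1.14 in the whole replicate 2 list to 1.68 in the stronger 50% of the list, and the largest adjusted p by Fisher's exact test was 0.0105, with the centre from 33 to 67%, where the ratio was 1.35. The left over the right arm was 1.27 to 1.30 with 1 replicate left out, with intervals that include 1, and passed with the whole replicate 1 list (1.19) and replicate 2 list (1.09), which hold more peaks. The share of strong peaks was 51.9 to 53.3% in the centre and 49.7 to 51.7% in the arms with 1 replicate left out. It was 35.2% and 34.7% for the 1000 strongest peaks, which are fewer by construction, and 40.8% in the arms of the whole replicate 1 list. With the centre taken from 33 to 67% of the span it was 49.5% in the centre and 53.2% in the arms, the other way round. Median spacing with the stronger 50% of peaks was 43.8 kb in the centre, 73.3 kb in the left arm and 92.2 kb in the right arm, as fewer peaks lie further apart, and 28.4 kb in the left outer zone when this reached to 33% of the span. With 1 replicate left out it was 19.8 to 23.0 kb in the centre, 35.6 to 37.6 kb in the left arm and 29.8 to 39.4 kb in the right arm. The left arm had the shorter spacing of the arms in the stronger 50%, with the 33 to 67% centre (28.4 kb left, 30.1 kb right) and without replicate 2 (37.6 kb left, 39.4 kb right), against 38.0 kb left and 31.0 kb right as reported. The share of combined peaks matched in both replicates was 89.1% with 50% reciprocal overlap and 100% in the stronger 50% of the lists. Replicate 1 recurrence with 50% reciprocal overlap was 31.1% in the centre, 23.7% in the left arm and 22.7% in the right arm, and replicate 2 recurrence 23.5%, 19.6% and 17.1%. In the stronger 50% of the lists replicate 1 recurrence in the centre was 44.4%. Since depth is unknown, a stretch without a peak is not shown to be unbound.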

Other observations

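Some replicate peaks of chromosome V recurred in the other replicate without lying on a combined peak. They were 1213 of the 4423 peaks of replicate 1 and 1209 of the 5698 of replicate 2. The share over all chromosomes is not given here. Of the 1213 in replicate 1, 723 lay in the centre, 272 in the left arm and 218 in the right arm. Their density was 69.1 per Mb (95% exact Poisson interval 64.2 to 74.4) in the centre, against 52.0 (46.0 to 58.6) in the left arm and 41.7 (36.3 to 47.6) in the right arm. Replicate 2 gave 69.7, 51.3 and 40.5 per Mb. All peaks of the replicate lists were also densest in the centre. For centre, left arm and right arm they had 239, 200.2 and 168 per Mb in replicate 1. In replicate 2 these were 315, 240.0 and 220.1 per Mb. The best of the recurrent peaks off the combined peaks were number 2419 in replicate 1 and number 1949 in replicate 2. Their median numbers were 12472 and 15154, against 13096 and 15849.5 for all chromosome V peaks of these lists. How many overlap by position alone was not tested.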
